A study of Mus musculus with 9 samples.

Results

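The metallothionein genes Mt1, Mt2 and Mt4, their zinc-sensing regulator Mtf1, the zinc transporters Slc30a1, Slc39a4 and Slc39a10, and the arsenic methyltransferase gene As3mt were followed in the mouse colon carcinoma line MC38 and its liver metastatic derivatives. These 8 genes were taken by their symbols from the 16399 genes listed for each library, and they were chosen by their TPM levels and fold changes in these same libraries, with those results known. Their levels and differences are therefore given as a description. Calls from the fit of all tested genes are stated for them, but nothing is read from these calls. MC38 is an established line of C57BL/6 origin, and all cells carried a GFP and luciferase reporter. MC38-P is the parental line. MC38-LM3a and MC38-LM3b were derived independently of each other, in the third round of a selection in which cells were injected into the spleen of C57BL/6 mice and recovered from liver metastases by resection, dissociation and culture. Each derivative is a single line, so that a difference from MC38-P is a difference of that line. All cells were grown in the same kind of high-glucose DMEM medium with serum and antibiotics, and no metal treatment is described. Poly(A) RNA of 3 samples of each line was sequenced, giving 9 libraries; the series' own design text calls the samples of a line biological replicates.

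Metallothioneins are small, cysteine-rich proteins that bind zinc, copper and cadmium and buffer free zinc in the cell. When zinc rises, the zinc-finger factor Mtf1 binds short metal response elements in DNA and turns on the metallothionein genes and Slc30a1, which carries zinc out of the cell, while it holds down Slc39a10, which carries zinc in. As3mt methylates arsenite with S-adenosylmethionine as the methyl donor and is best known from the liver, where arsenic is processed for excretion.

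The deposited values are TPM, which are scaled to the transcript length and to the same total in every library, so levels of different genes may be compared. They come without read counts, so sequencing depth is unknown, and of a 0 it can only be said that the gene is listed at 0. From 10875 to 11218 genes reached 1 TPM in a library, and the 11287 genes that did so in 3 or more libraries were tested with limma on log2(TPM + 1), a scale that understates the change of low genes. A gene was called when its Benjamini-Hochberg adjusted p was under 0.05 and its log2 fold change was beyond 1 in either direction. Over all tested genes the median log2 fold change against MC38-P was -0.00016 for MC38-LM3a but 0.21 for MC38-LM3b, a general shift beside which each MC38-LM3b value should be seen. MC38-P replicate 3 and MC38-LM3a replicate 3 stood apart from the other libraries of their lines: the deviation from the group mean correlated with transcript length across 11096 genes with Spearman's rho of -0.65 and 0.67, against 0.43 to 0.53 in the other MC38-P libraries and -0.57 to -0.54 in the other MC38-LM3a libraries, and each MC38-LM3b library lay within 0.023 of 0. Values were therefore also corrected for length and GC content, and corrected values are named as such. The labelled colon epithelial identity was only partly borne out, since Krt8 lay between 743.8 and 1206 TPM in all libraries while the epithelial cadherin Cdh1 was at most 0.08 TPM. Albumin, the defining hepatocyte product, was at most 0.29 TPM in any library, and the pan-leukocyte gene Ptprc at most 0.09 TPM. With these included, 7 of 8 listed hepatocyte markers and 3 of 5 listed macrophage and leukocyte markers stayed under 1 TPM in every library. The others did not: Apoa2 lay between 1.16 and 4.23 TPM, Cd68 between 27.72 and 45.57 TPM and Cd14 between 10.29 and 16.03 TPM. In such bulk samples fewer cells that express a gene and less of its RNA per cell cannot be told apart.

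The sequences of the Mt pair and of the start regions are shown first because they carry the questions that the values raise. Mt1 and Mt2 lie side by side on chromosome 8 of GRCm38 (chr8:94179082-94180327 and chr8:94172664-94173568, both on the plus strand), with Mt4 further upstream at chr8:94137197-94139031. Their coding sequences, read from the GENCODE M21 transcripts, both have 186 bases. The capitals mark the 38 positions at which they differ.
Mt1 coding sequence: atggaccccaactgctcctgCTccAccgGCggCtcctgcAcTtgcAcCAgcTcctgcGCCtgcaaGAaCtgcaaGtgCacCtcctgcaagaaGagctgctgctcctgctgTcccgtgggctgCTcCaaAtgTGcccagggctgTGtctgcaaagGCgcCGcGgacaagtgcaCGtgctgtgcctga
Mt2 coding sequence: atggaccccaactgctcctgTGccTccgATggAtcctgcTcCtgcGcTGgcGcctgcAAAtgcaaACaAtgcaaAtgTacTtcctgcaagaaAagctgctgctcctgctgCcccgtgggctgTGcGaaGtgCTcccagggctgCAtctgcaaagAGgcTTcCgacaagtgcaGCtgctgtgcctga
The coding sequences were 79.6% identical, and the longest run of bases that the complete transcripts share exactly was 20 bases. The read length and the counting method are not given in the sources used here, and how reads were assigned within the pair was not tested.

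For the start regions, the 250 bases before the RefSeq start of each gene (GRCm38.p6) were searched on both strands for TGCACNC and TGCGCNC, the core letters of a metal response element. These windows were found for 7 of the 8 genes, all but Slc39a4. The windows printed are chr8:94178839-94179088 for Mt1, chr8:94172368-94172617 for Mt2, chr1:191906531-191906780 for Slc30a1 and chr19:46707208-46707457 for As3mt, all on the plus strand, with every match in capitals.
Mt1 start region: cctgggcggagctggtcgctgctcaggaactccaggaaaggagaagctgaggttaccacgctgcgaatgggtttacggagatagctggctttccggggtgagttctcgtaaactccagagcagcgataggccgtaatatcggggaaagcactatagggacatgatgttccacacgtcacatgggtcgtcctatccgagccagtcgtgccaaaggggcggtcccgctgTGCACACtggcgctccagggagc
Mt2 start region: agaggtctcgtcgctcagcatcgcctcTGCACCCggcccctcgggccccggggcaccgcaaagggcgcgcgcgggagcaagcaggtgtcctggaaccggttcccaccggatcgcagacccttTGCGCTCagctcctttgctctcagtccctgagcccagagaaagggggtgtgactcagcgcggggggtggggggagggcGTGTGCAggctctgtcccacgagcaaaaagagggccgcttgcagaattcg
Slc30a1 start region: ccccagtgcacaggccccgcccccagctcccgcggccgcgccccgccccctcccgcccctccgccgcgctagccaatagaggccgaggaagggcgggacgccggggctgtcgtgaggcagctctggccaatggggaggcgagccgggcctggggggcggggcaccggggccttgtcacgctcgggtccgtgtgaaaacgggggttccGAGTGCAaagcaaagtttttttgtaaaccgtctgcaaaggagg
As3mt start region: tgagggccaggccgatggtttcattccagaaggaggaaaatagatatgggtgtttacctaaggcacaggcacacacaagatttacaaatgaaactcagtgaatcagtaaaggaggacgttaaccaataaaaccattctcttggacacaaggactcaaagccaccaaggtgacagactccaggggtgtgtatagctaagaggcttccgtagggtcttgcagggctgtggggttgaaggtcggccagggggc
Mt2 held 3 matches, beginning 223, 128 and 50 bases before the start. Mt1 held 1 match at 23 bases before the start, Slc30a1 held 1 at 43 bases, and Mt4 held 1 at 91 bases. Mtf1 and As3mt held none in their windows, and Slc39a10 held none in either of its 2 windows. The Mtf1 window (chr4:124802299-124802548) and the first Slc39a10 window (chr1:46853619-46853868) lay inside the GENCODE spans of these genes, so the annotations differ in their starts. Of 32841 such windows over all genes, 21.4% held at least 1 match and 5.18% held at least 2. The annotated start decides which side of it a match falls on: within the first 200 bases of the GENCODE transcripts, a window chosen after the first result was seen, Mt1 held 4 matches, Mt2 held 3, Slc30a1 held 1 and the other 5 genes none. At least 1 match stood in this window in 21.8% of 28725 transcripts, and at least 4 in 0.16%. These matches describe the letters only, and no binding was measured.

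Mt1 and Mt2, the metallothioneins that most tissues make, were among the most abundant transcripts in all 3 lines. Their mean levels over the 9 libraries ranked 215th and 238th of the 16399 listed genes. Mt1 stood at 652.2, 746.4 and 718.0 TPM in MC38-P, at 571.7, 650.0 and 672.1 TPM in MC38-LM3a, and at 585.9, 638.1 and 697.2 TPM in MC38-LM3b. Means were 705.5 ± 48.3, 631.3 ± 52.8 and 640.4 ± 55.7 TPM (SD, n = 3), and the libraries of all 3 lines overlapped. Against MC38-P, Mt1 had a log2 fold change of -0.16 (SE 0.084) in MC38-LM3a and of -0.14 (SE 0.084) in MC38-LM3b, the latter -0.014 with the correction for length and GC content. Leaving out replicate 1 of the derivative brought these values to -0.092 and -0.079, and with the median of each library set equal the value of MC38-LM3b was -0.36.

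Mt2 showed the opposite sign. It stood at 557.8, 564.7 and 502.0 TPM in MC38-P, at 550.3, 617.1 and 620.6 TPM in MC38-LM3a, and at 639.4, 669.1 and 698.3 TPM in MC38-LM3b. Means were 541.5 ± 34.4, 596.0 ± 39.6 and 668.9 ± 29.4 TPM (SD, n = 3). All MC38-LM3b libraries lay above all libraries of both other lines, as 51.3% of the tested genes did against MC38-P and 38.4% against MC38-LM3a, whereas MC38-LM3a overlapped with MC38-P. Against MC38-P the log2 fold change was 0.14 (SE 0.069) in MC38-LM3a and 0.31 (SE 0.069) in MC38-LM3b, the latter against the median of 0.21 for all tested genes. The MC38-LM3b value was 0.082 with the median of each library set equal and 0.43 with the correction for length and GC content. The MC38-LM3a value was 0.084 without MC38-P replicate 3 and 0.054 without both libraries that stood apart by length. Between the derivatives the log2 fold change of Mt2 was 0.17. This difference was 0.11 without MC38-LM3a replicate 1, turned to -0.055 with the median of each library set equal, and was 0.28 with the correction.

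The balance within the pair separated the 3 lines without overlap. The ratio of Mt2 to Mt1, which needs no scaling between libraries, was 0.855, 0.757 and 0.699 in MC38-P, 0.963, 0.949 and 0.923 in MC38-LM3a, and 1.09, 1.05 and 1.00 in MC38-LM3b. In other words, by the deposited values Mt1 was the more abundant of the pair in every library of MC38-P and MC38-LM3a, and Mt2 was level with it or above it in every MC38-LM3b library. After the correction for length and GC content the ratio of MC38-LM3b replicate 3 was 0.994, with Mt1 slightly above Mt2. Means were 0.770 ± 0.079, 0.945 ± 0.020 and 1.05 ± 0.045 (SD, n = 3). On the log2 scale the ratio differed from MC38-P by 0.30 in MC38-LM3a and by 0.45 in MC38-LM3b, and between the derivatives by 0.15. Leaving out 1 library at a time placed these differences between 0.23 and 0.38, 0.38 and 0.52, and 0.12 and 0.18 in that order, while scaling a whole library cannot move such a ratio. The ratio was formed after the levels of both genes had been seen, and the share of other gene pairs that separate the lines in this way is not given here. Since the genes have similar length (549 and 511 bases) and GC content (58.1% and 55.6%), the correction moved the group means little, to 0.773, 0.944 and 1.05. The sum of the pair overlapped between the lines, with 1247 ± 55.7, 1227 ± 92.1 and 1309 ± 85.0 TPM (SD, n = 3) in the same order, which was 0.125%, 0.123% and 0.131% of all TPM.

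**Figure D1:**
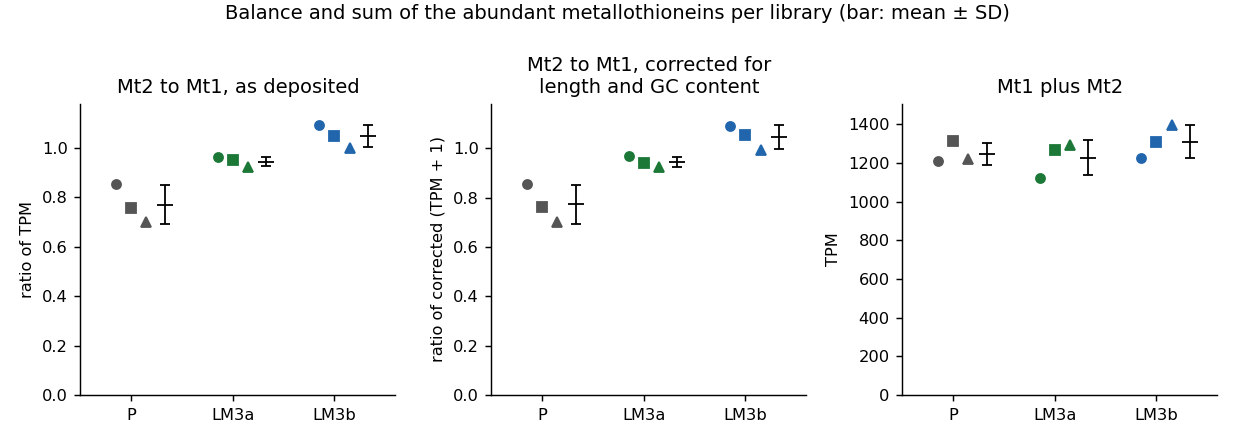
Ratio of Mt2 to Mt1 per library as deposited (left), the same after correction for transcript length and GC content (middle), and the sum of Mt1 and Mt2 in TPM (right). Points are the 3 libraries of each line, with the parental line first, and bars the mean ± SD. The deposited ratios lie between 0.699 and 0.855, 0.923 and 0.963, and 1.00 and 1.09, while the sums of the 3 lines overlap.

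Mt4, the metallothionein of stratified squamous epithelium, lay at the limit of what these libraries show. It was 1.40, 1.35 and 0 TPM in MC38-P, 1.22, 0 and 0 TPM in MC38-LM3a, and 1.24, 2.58 and 2.66 TPM in MC38-LM3b. It was thus listed at 0 in 3 of the 9 libraries, and it ranked only 10983rd by its mean. MC38-LM3b overlapped with MC38-P and lay above MC38-LM3a in every library, but only by 1.24 against 1.22 TPM at the nearest, and 38.4% of the tested genes showed this order. The log2 fold change between the derivatives was 1.24 (SE 0.39), a difference that was not called. It was called when MC38-LM3a replicate 3 was left out, with a log2 fold change of 1.05, and when MC38-P replicate 3 and MC38-LM3a replicate 3 were left out together. Mt4 was chosen on these same libraries and is listed at 0 in MC38-LM3a replicate 3, so nothing is read from these calls. Mt3, the metallothionein of the brain, was not among the listed genes and was not analysed here.

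Mtf1 itself, the factor that reads the zinc level, was a transcript of modest abundance. It stood at 6.97, 6.97 and 5.57 TPM in MC38-P, at 6.66, 7.45 and 9.38 TPM in MC38-LM3a, and at 9.26, 9.96 and 8.90 TPM in MC38-LM3b. Each MC38-LM3b library was above each MC38-P library, as for 51.3% of the tested genes, and MC38-LM3a overlapped with both. Log2 fold changes against MC38-P were 0.23 (SE 0.14) in MC38-LM3a and 0.47 (SE 0.14) in MC38-LM3b. The MC38-LM3a value was 0.11 without MC38-LM3a replicate 3, 0.14 without MC38-P replicate 3 and 0.014 without both of these libraries. Mtf1 has the longest transcript of the 8 genes (7631 bases), and its lowest and highest values within MC38-P and MC38-LM3a fell in the libraries that stood apart by length. After correction for length and GC content the log2 fold changes were 0.31 (SE 0.078) and 0.16 (SE 0.078), so that MC38-LM3b was above MC38-LM3a before the correction and below it after the correction (0.24 and -0.15). The uncorrected difference between the derivatives was 0.15 without MC38-LM3a replicate 1 and 0.37 without MC38-LM3a replicate 3.

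**Figure D2:**
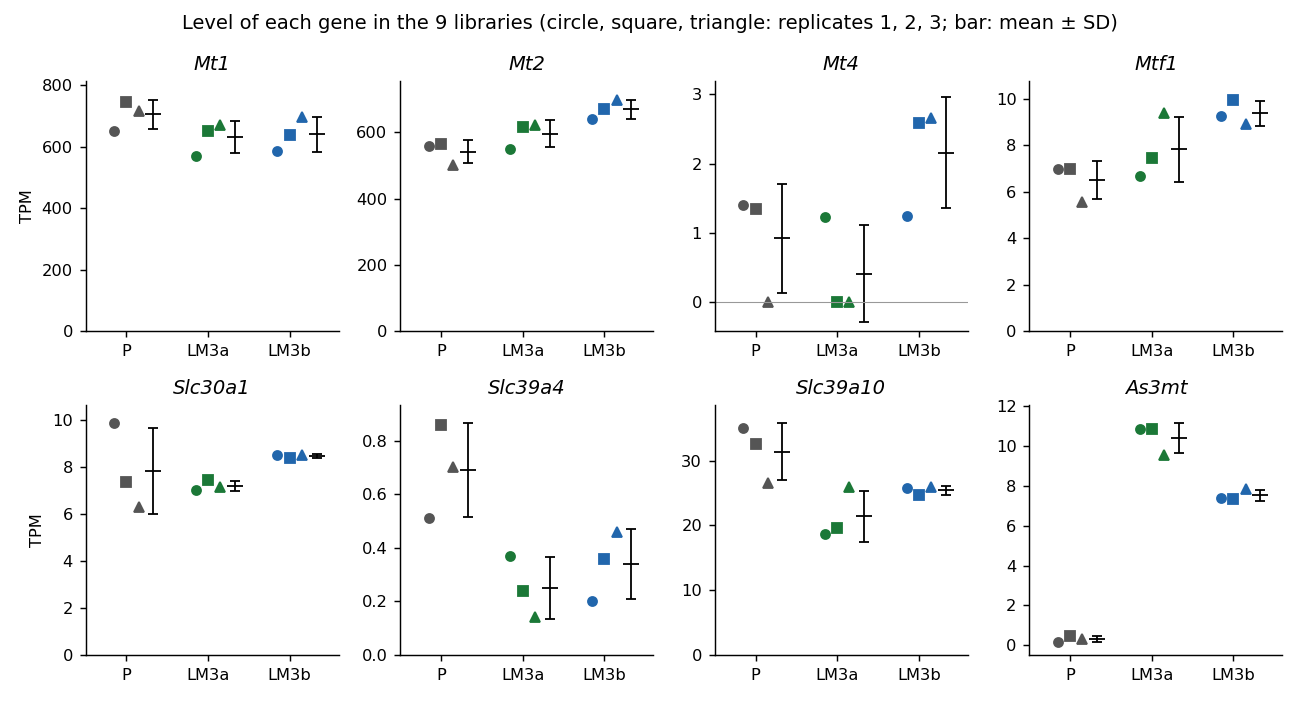
Level in TPM (linear axis, a separate range for each gene) of the 8 genes in the 9 libraries. Circles, squares and triangles are replicates 1, 2 and 3 of MC38-P (P), MC38-LM3a (LM3a) and MC38-LM3b (LM3b), and bars the mean ± SD. As3mt lies between 0.16 and 0.46 TPM in MC38-P and between 7.34 and 10.86 TPM in the derivatives, whereas Mt1 overlaps between all lines.

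Slc30a1, the exporter that Mtf1 turns on together with the metallothioneins, differed little. It stood at 9.88, 7.37 and 6.32 TPM in MC38-P, at 7.04, 7.44 and 7.16 TPM in MC38-LM3a, and at 8.53, 8.40 and 8.51 TPM in MC38-LM3b. The spread within MC38-P (SD 1.83 TPM) was larger than any difference between the means of 7.86, 7.21 and 8.48 TPM. All MC38-LM3b libraries were above all MC38-LM3a libraries, a pattern that 38.4% of the tested genes showed. The log2 fold change against MC38-P was -0.089 (SE 0.14) in MC38-LM3a, where it turned to 0.069 without MC38-P replicate 1 and was -0.22 without MC38-P replicate 3. In MC38-LM3b it was 0.12 (SE 0.14), and it was 0.28 and -0.0096 without the same libraries and -0.14 after the correction for length and GC content.

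Slc39a10, an importer of the plasma membrane and the transporter that Mtf1 holds down, was lower in both derivatives. It stood at 35.0, 32.5 and 26.5 TPM in MC38-P, at 18.7, 19.6 and 25.9 TPM in MC38-LM3a, and at 25.7, 24.6 and 26.0 TPM in MC38-LM3b. Every derivative library was below every MC38-P library, although the lowest MC38-P library and the highest MC38-LM3a library, which are those that stood apart by length, nearly met. Means were 31.3 ± 4.41, 21.4 ± 3.94 and 25.4 ± 0.716 TPM (SD, n = 3), which was 0.682 and 0.811 times the MC38-P mean. Against MC38-P the log2 fold change was -0.54 (SE 0.13) in MC38-LM3a and -0.28 (SE 0.13) in MC38-LM3b, and over the settings of the processing it lay between -0.79 and -0.45 in the former and between -0.56 and -0.20 in the latter. After correction for length and GC content (the transcript has 5498 bases) the log2 fold changes were -0.50 and -0.56, each with an SE of 0.043, and the difference between the derivatives went from 0.25 to -0.061. Without the correction that difference was 0.17 in the absence of MC38-LM3a replicate 1 and 0.39 in that of MC38-LM3a replicate 3. Groups that do not overlap were no rarity: of the tested genes 15.9% had every MC38-LM3a library below every MC38-P library, and 15.4% had every MC38-LM3b library below. The ratio of the importer Slc39a10 to the exporter Slc30a1 was 4.05 ± 0.449 in MC38-P, against 2.97 ± 0.563 and 3.00 ± 0.0619 in the derivatives (SD, n = 3), with MC38-LM3a replicate 3 at 3.62 inside the MC38-P range of 3.55 to 4.41.

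Slc39a4, the zinc importer of the intestinal lining that is mutated in acrodermatitis enteropathica, was barely present. It stood at 0.51, 0.86 and 0.70 TPM in MC38-P, at 0.37, 0.24 and 0.14 TPM in MC38-LM3a, and at 0.20, 0.36 and 0.46 TPM in MC38-LM3b. Every derivative library was below every MC38-P library, but no library reached 1 TPM and the gene did not pass the filter on low values. Of the tested genes, 15.9% had every MC38-LM3a library and 15.4% every MC38-LM3b library below every MC38-P library. Without that filter it had a log2 fold change of -0.43 for MC38-LM3a and of -0.33 for MC38-LM3b. Slc39a4 lies on chromosome 15 (chr15:76612383-76617384), where 458 tested genes had a median log2 fold change of -0.54 for MC38-LM3a and -0.32 for MC38-LM3b, whereas on chromosomes 1, 4, 8 and 19, which hold the other 7 genes, medians were between -0.019 and 0.10 in MC38-LM3a and between 0.20 and 0.25 in MC38-LM3b. Beside it, 4 of 6 tested colon epithelial markers fell in each derivative, Cdx2 and Epcam among them. Of all tested genes, 13.8% (MC38-LM3a) and 11.2% (MC38-LM3b) fell by an adjusted p under 0.05. The other 2 markers, Krt19 and Krt20, rose in MC38-LM3a (log2 fold changes of 0.39 and 0.55), as 14.1% of all tested genes did. In MC38-LM3b neither passed the threshold, with log2 fold changes of -0.077 (-0.13 to -0.027 leaving out 1 library) and 0.33 (0.17 to 0.49, and 0.16 after the correction), except Krt20 without MC38-LM3b replicate 1. Krt20 no longer passed the adjusted p in MC38-LM3a without MC38-P replicate 1 or 2, MC38-LM3a replicate 2 or MC38-LM3b replicate 3, while its log2 fold change lay between 0.45 and 0.63 over the 9 fits that each left out 1 library. Krt20 was under 1 TPM in every MC38-P library and Cdx2 in every derivative library, so each passed the filter only through the lines in which it is high, and nothing is read from their part in these counts. The summed level of the 10 listed markers was 2004 to 2318 TPM in MC38-P, 1592 to 1812 TPM in MC38-LM3a and 1585 to 1630 TPM in MC38-LM3b. Most of it came from Krt8 (means of 1127, 805.9 and 764.1 TPM) and Krt18 (907.3, 767.6 and 726.2 TPM). Both are among the markers that fell, and both lie on chromosome 15. Their log2 fold changes were -0.48 and -0.24 in MC38-LM3a and -0.56 and -0.32 in MC38-LM3b. The part of the chromosome's shift and of these markers in the Slc39a4 values was not tested.

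As3mt showed by far the largest difference of the 8 genes. It stood at 0.16, 0.46 and 0.34 TPM in MC38-P, at 10.85, 10.86 and 9.55 TPM in MC38-LM3a, and at 7.39, 7.34 and 7.84 TPM in MC38-LM3b. The gene was thus close to silent in the parental line and of the level of Mtf1 or Slc30a1 in the derivatives, with no overlap between any of the 3 lines. Means were 0.320 ± 0.151, 10.4 ± 0.754 and 7.52 ± 0.275 TPM (SD, n = 3), so that the derivatives had 32.6 times and 23.5 times the MC38-P mean. The log2 fold change on log2(TPM + 1) was 3.12 (SE 0.12) in MC38-LM3a and 2.70 (SE 0.12) in MC38-LM3b. Its lowest values over 22 settings were 3.03 and 2.43, and with a pseudocount of 0.1 TPM it was 4.71 and 4.25. Between the derivatives MC38-LM3b was lower, with a log2 fold change of -0.42 (SE 0.12) and of -0.51 after correction for length and GC content. Of the tested genes, 3.6% had every MC38-LM3b library below every MC38-LM3a library.

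As3mt was the only one of the 7 tested genes that was called in either derivative, where calls were made for 2.89% (MC38-LM3a) and 3.93% (MC38-LM3b) of all tested genes, and higher calls for 1.39% and 2.76%. By log2 fold change it ranked 9th of the 157 genes called higher in MC38-LM3a, and 14th of 311 in the other derivative. Every MC38-LM3a library was above every MC38-P library for 20.3% of the tested genes, and every MC38-LM3b library was for 51.3%. As it passed the filter only through the derivative libraries in which it is high, and was chosen for this difference, nothing is read from these counts. None of the 7 genes was called between MC38-LM3b and MC38-LM3a, where 0.0266% of all tested genes were called (3 genes) and 0.0532% had an adjusted p under 0.05 alone (6 genes). The liver is the organ best known for As3mt, and the summed level of the hepatocyte markers was 1.82 to 3.64 TPM in MC38-P, 2.11 to 2.18 TPM in MC38-LM3a and 2.71 to 4.33 TPM in MC38-LM3b over the 8 of 10 markers that were listed, and 0 of the 1 marker tested (Apoa2) had an adjusted p under 0.05 in either derivative.

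**Figure D3:**
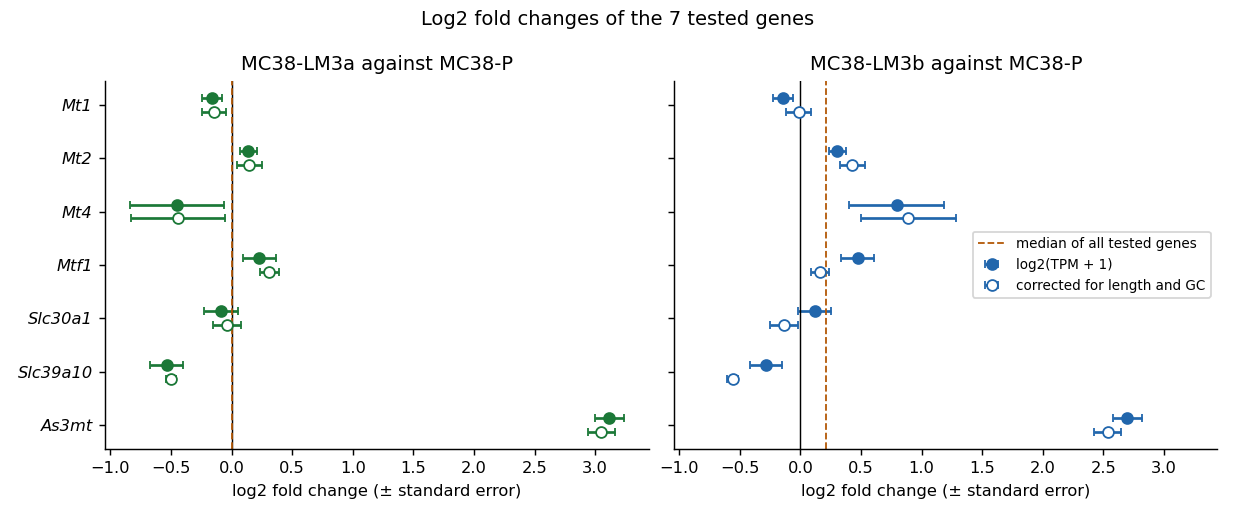
Log2 fold change (± SE) of the 7 tested genes in MC38-LM3a (left) and MC38-LM3b (right) against MC38-P, as deposited (filled) and corrected for transcript length and GC content (open). The dashed line is the median of all tested genes, -0.00016 on the left and 0.21 on the right. As3mt lies at 3.12 and 2.70 and Slc39a10 at -0.54 and -0.28.

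The other genes near As3mt and near the metallothioneins were compared to see whether whole neighbourhoods differed. As3mt lies at chr19:46707458-46741099, with Borcs7, a subunit of a lysosome-positioning complex, 4076 bases before it and Cnnm2, linked to magnesium handling, 20497 bases after it. Borcs7 had mean levels of 3.89 TPM in MC38-P, 4.91 TPM in MC38-LM3a and 4.40 TPM in the other derivative, with a log2 fold change of 0.27 in MC38-LM3a (adjusted p = 0.0784) and of 0.14 in MC38-LM3b (adjusted p = 0.278), the latter turning to -0.078 after the correction for length and GC content. Cnnm2 had mean levels of 3.66, 4.71 and 5.67 TPM. It rose in MC38-LM3b with a log2 fold change of 0.53 (SE 0.16, adjusted p = 0.0225), which did not pass the threshold under a replicate block or without MC38-P replicate 3, MC38-LM3b replicate 1 or MC38-LM3b replicate 3 (log2 fold changes of 0.38, 0.50 and 0.46), and its log2 fold change in MC38-LM3a was 0.30 (adjusted p = 0.202), between 0.15 and 0.40 leaving out 1 library. After the correction the log2 fold changes of Cnnm2 were 0.35 and 0.30, both past the threshold (adjusted p = 0.00933 and 0.0189). Neither neighbour came near the size of As3mt, and the 385 tested genes of chromosome 19 had medians of -0.019 and 0.20. Beside the metallothioneins, Bbs2, a gene of primary cilia, had a log2 fold change of -0.10 for MC38-LM3a (-0.25 to -0.023 leaving out 1 library) and of 0.14 for MC38-LM3b, the latter -0.070 after the correction. Nup93 on the other side, which encodes a scaffold protein of the nuclear pore, had log2 fold changes of -0.22 and -0.073 (the latter -0.13 to -0.032 leaving out 1 library). Neither passed the threshold in either derivative with the values as deposited and all libraries. Nup93 passed in MC38-LM3a without MC38-P replicate 3 or MC38-LM3a replicate 3, and in both derivatives after the correction, with log2 fold changes of -0.24 and -0.28.

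**Figure D4:**
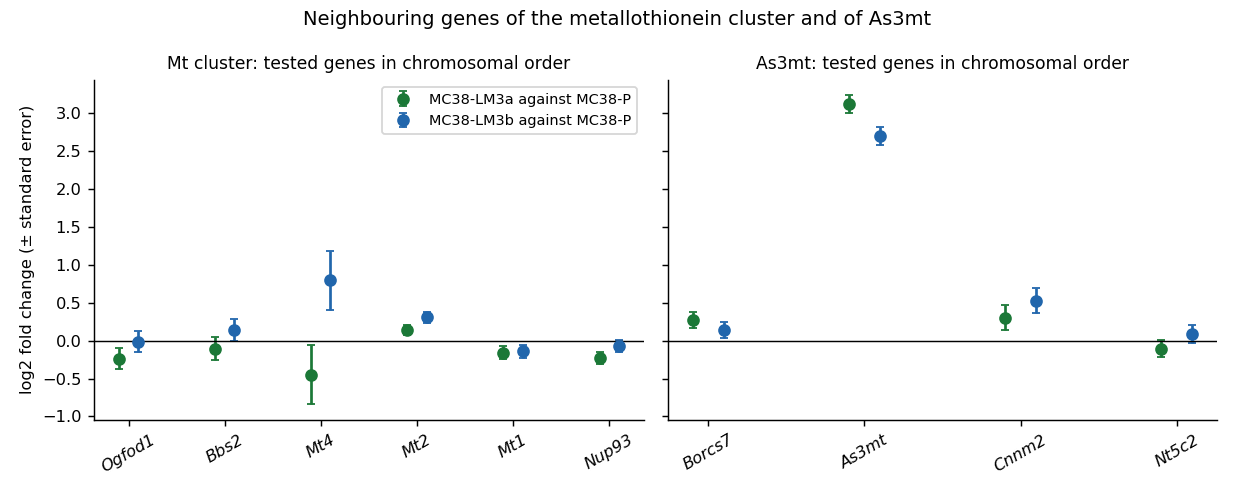
Log2 fold change (± SE) against MC38-P of the tested genes around the metallothionein cluster (left) and around As3mt (right), in chromosomal order with equal spacing. Green is MC38-LM3a and blue MC38-LM3b. As3mt stands at 3.12 and 2.70, and its neighbours Borcs7 and Cnnm2 lie between 0.14 and 0.53.

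The genes whose pattern over the 9 libraries was most like that of a member were found by the root mean square difference of the centred log2(TPM + 1) values. For As3mt they were Serpinb6b, a serine protease inhibitor (0.141), Grap, an adaptor of receptor signalling in lymphocytes (0.142), and Fes, a tyrosine kinase of myeloid cells (0.249). Serpinb6b had means of 1.31 TPM in the parental line and of 17.9 and 15.7 TPM in the derivatives, Grap of 2.62, 30.3 and 27.4 TPM, and Fes of 0.377, 9.83 and 11.0 TPM. All 3 were low in every MC38-P library and high in every derivative library, as As3mt was, but only Serpinb6b and Grap shared with it the lower mean in MC38-LM3b. Of 10 macrophage and leukocyte markers 5 were listed and 2 tested. Both of these, Cd68 and Cd14, rose in each derivative, as 14.1% (MC38-LM3a) and 35.6% (MC38-LM3b) of all tested genes did. Summed levels of the list were 38.9 to 40.2 TPM in MC38-P, 48.8 to 53.7 TPM in MC38-LM3a and 55.6 to 60.0 TPM in MC38-LM3b. The 3 other listed markers stayed under 1 TPM in every library. In the same order of lines, means were 0.053, 0.027 and 0.037 TPM for Ptprc and 0.087, 0.057 and 0.030 TPM for Csf1r. Lyz2 had means of 0, 0.037 and 0.093 TPM. The part of macrophages and leukocytes in As3mt and in the genes like it was not tested. The most like genes were Trdmt1 (0.0460), Clns1a (0.0600) and Atic (0.0610) for Mt1, and Armh3 (0.0364), Uri1 (0.0397) and Egln3 (0.0412) for Mt2. Egln3, an oxygen-sensing hydroxylase, had means of 47.7, 52.2 and 59.6 TPM.

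The other zinc transporters were described from a list of 22 ZIP importers and ZnT exporters outside the 8 genes, of which 19 were listed and 13 tested. In MC38-LM3a, 3 of the 13 rose and 1 fell by an adjusted p under 0.05 (14.1% and 13.8% of all tested genes), with a median log2 fold change of 0.060. In MC38-LM3b, 6 rose and 0 fell (35.6% and 11.2% of all tested genes), with a median of 0.27. After the correction for length and GC content 5 rose and 3 fell in MC38-LM3a, and 4 rose and 1 fell in MC38-LM3b, with medians of 0.045 and 0.044. Both uncorrected medians lay within 0.1 of those of all tested genes.

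Among the importers, 3 of 8 tested rose and 1 fell in MC38-LM3a, and 5 rose in MC38-LM3b. Slc39a13, which moves zinc from intracellular stores in connective tissue cells, rose in both: it stood at 35.1, 37.6 and 30.4 TPM in MC38-P, at 52.1, 47.0 and 56.1 TPM in MC38-LM3a, and at 59.9, 62.9 and 62.8 TPM in MC38-LM3b. Its log2 fold changes were 0.58 (SE 0.094, adjusted p = 0.00122) and 0.83 (SE 0.094, adjusted p = 9.1e-05), and 0.66 and 0.77 after the correction. Of 5 tested fibroblast and stellate markers 3 fell in each derivative (13.8% and 11.2% of all tested genes), whereas Pdgfrb rose in MC38-LM3b (log2 fold change of 0.88). Sums of the 7 listed were 139.5 to 176.5 TPM in MC38-P, 55.7 to 75.0 TPM in MC38-LM3a and 67.9 to 74.2 TPM in MC38-LM3b. Slc39a1, the most abundant importer in the derivatives but second to Slc39a7 in every MC38-P library, rose from a mean of 158.1 ± 5.88 TPM to 203.5 ± 1.24 and 224.1 ± 2.69 TPM in the derivatives (SD, n = 3). On the log2 scale it rose by 0.36 (adjusted p = 0.000596) and by 0.50 (adjusted p = 5.9e-05), each with an SE of 0.053. Slc39a7, which releases zinc from the endoplasmic reticulum, stood at means of 182.8, 183.7 and 200.1 TPM and passed the threshold in neither derivative (log2 fold changes of 0.0067 and 0.13, adjusted p = 0.948 and 0.0777, the latter 0.019 after the correction and past the threshold without MC38-LM3a replicate 3). The importer that fell in MC38-LM3a was Slc39a6, named after its values were seen and the closest relative of Slc39a10, with a log2 fold change of -0.33 (SE 0.10, adjusted p = 0.0312). After the correction its log2 fold change was -0.30 in this line and -0.42 in the other derivative, each with an SE of 0.039. Without the correction it no longer passed the adjusted p in MC38-LM3a under a replicate block, in a model of only the MC38-P and MC38-LM3a libraries, and without any 1 of 7 libraries: MC38-P replicate 1 or 2, MC38-LM3a replicate 1 or 2, or MC38-LM3b replicate 1, 2 or 3. Its log2 fold change lay between -0.43 and -0.28 over the 9 fits that each left out 1 library, and where it did not pass no zinc transporter of the list fell.

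Among the exporters, 0 of 5 tested changed in MC38-LM3a by limma's adjusted p, with 0 at an unadjusted p under 0.05, and 1 rose in MC38-LM3b. After the correction 1 rose and 1 fell in MC38-LM3a. The exporter that rose in MC38-LM3b was Slc30a9, named after its values were seen, with a log2 fold change of 0.49 (SE 0.10, adjusted p = 0.00306) that was 0.21 after the correction. Slc30a4, the most abundant exporter, stood at 96.1, 89.4 and 71.9 TPM in MC38-P, at 76.6, 80.7 and 98.3 TPM in MC38-LM3a, and at 105.7, 104.2 and 103.0 TPM in MC38-LM3b. Log2 fold changes of Slc30a4 were -0.0076 (adjusted p = 0.971) and 0.29 (adjusted p = 0.0596), and the latter was -0.010 after the correction. It lay between 0.17 and 0.38 leaving out 1 library and passed the adjusted p without MC38-P replicate 1 or MC38-LM3a replicate 3. Set beside these, Slc30a1 at a mean of 7.85 TPM over the 9 libraries was the lowest exporter that passed the filter, as it was by the mean of each line.

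**Figure D5:**
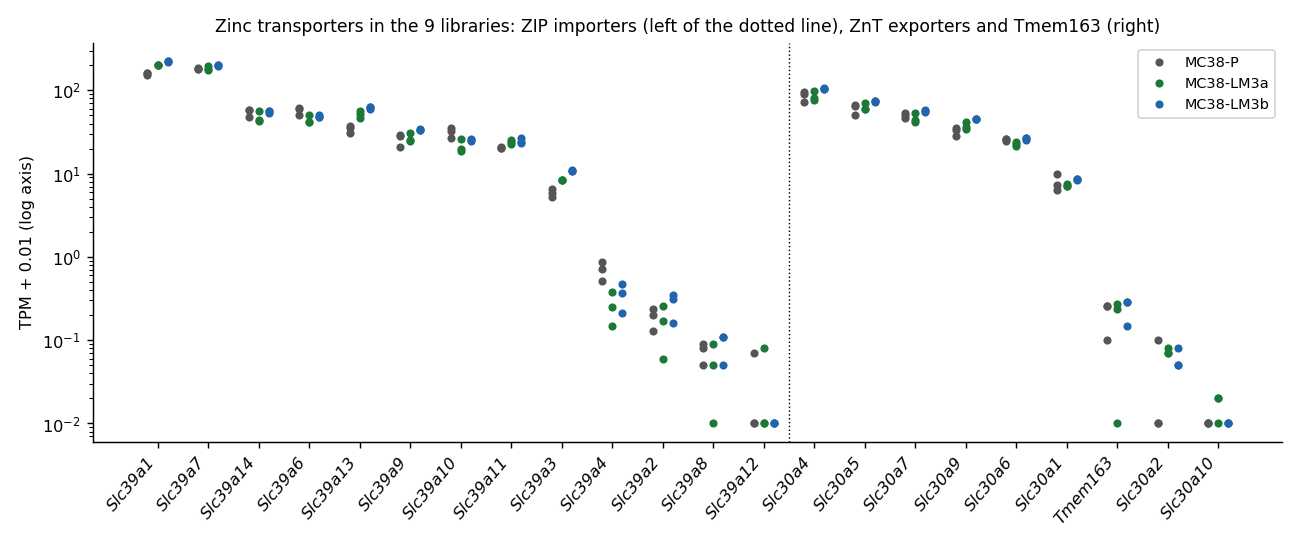
Level of each listed zinc transporter in the 9 libraries as TPM plus a small constant on a log axis, importers left of the dotted line and exporters right of it, each ordered by mean. Grey is MC38-P, green MC38-LM3a and blue MC38-LM3b. Slc39a1 (means of 158.1, 203.5 and 224.1 TPM) and Slc39a13 (34.4, 51.7 and 61.9 TPM) sit higher in the derivatives, and Slc39a4 stays below 1 TPM.

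Genes of the metal and electrophile stress response, many of which are driven by Nfe2l2 or Hsf1, moved in both directions. Of 17 genes all were listed and 16 tested. In MC38-LM3a, 2 rose and 6 fell by an adjusted p under 0.05 (14.1% and 13.8% of all tested genes), with a median log2 fold change of -0.11. In MC38-LM3b, 3 rose and 3 fell (35.6% and 11.2% of all tested genes), with a median of 0.033. After the correction 3 rose in each derivative while 9 fell in MC38-LM3a and 8 in MC38-LM3b, with medians of -0.12 and -0.13. Slc7a11, the cystine importer that feeds glutathione synthesis, fell in both derivatives. It stood at 43.4, 44.8 and 39.1 TPM in MC38-P, at 23.2, 25.5 and 25.2 TPM in MC38-LM3a, and at 26.3, 25.7 and 26.5 TPM in MC38-LM3b. Its log2 fold changes were -0.76 (SE 0.082, adjusted p = 9.2e-05) and -0.68 (SE 0.082, adjusted p = 0.000138), and -0.66 and -0.95 after the correction. Hspa1b, a heat shock protein that was chosen after its values were seen, fell by a like amount, with log2 fold changes of -0.73 (adjusted p = 0.000844) and -0.68 (adjusted p = 0.000875). Other heat shock genes of the list moved less: Hsph1 had log2 fold changes of -0.33 and -0.14 (-0.32 and -0.37 after the correction), and Dnajb1 of -0.040 and 0.054 (-0.049 and -0.14 after the correction). Hspa1a was at most 0.18 TPM and was not tested. Hmox1, the heme oxygenase that metals and arsenite induce, was chosen after its values were seen. It stood at means of 66.0, 75.8 and 81.8 TPM and rose in MC38-LM3b with a log2 fold change of 0.30 (adjusted p = 0.00835), against 0.20 in MC38-LM3a (adjusted p = 0.076). After the correction it passed the threshold in both, with log2 fold changes of 0.23 (adjusted p = 0.00932) for MC38-LM3b and 0.17 (adjusted p = 0.0433) for MC38-LM3a, and the difference between the derivatives was not called.

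The list around As3mt held 20 genes of arsenic handling and methyl supply, of which 19 were listed and 16 tested. In MC38-LM3a 5 rose and 2 fell (14.1% and 13.8% of all tested genes), with a median log2 fold change of 0.11. After the correction 5 rose and 4 fell, with a median of 0.080. In MC38-LM3b 5 rose and 1 fell (35.6% and 11.2% of all tested genes), with a median of 0.23. After the correction 4 rose and 4 fell there, with a median of 0.034. Pnp2, a purine nucleoside phosphorylase of the kind that can reduce arsenate, was among the 5 in each derivative. It stood at 0.33, 0.76 and 0.19 TPM in MC38-P, at 1.87, 1.36 and 1.42 TPM in MC38-LM3a, and at 1.09, 1.94 and 1.31 TPM in MC38-LM3b, so its levels were near the filter, and it is a near copy of Pnp with which reads may be shared. Pnp2 was under 1 TPM in every MC38-P library and passed the filter only through the derivatives in which it is high, so its log2 fold changes of 0.85 and 0.78, each with an SE of 0.18, are given as a description and nothing is read from its part in the counts. Next to the difference in As3mt, the genes of methyl supply named here, all chosen after their values were seen, had smaller absolute changes. Ahcy fell in both derivatives, with log2 fold changes of -0.37 and -0.37 (limma adjusted p = 0.000391 and 0.000259). After the correction the values of Ahcy were -0.39 and -0.55. Mat2a had log2 fold changes of -0.38 and -0.13, which were -0.41 and -0.37 after the correction. Leaving out 1 library placed them between -0.50 and -0.30 and between -0.26 and -0.050. Mat2b had log2 fold changes of 0.26 and 0.37, which were 0.19 and 0.17 after the correction. Mat2a passed the adjusted p in MC38-LM3a (0.0304), but not under a replicate block (0.0842) or without replicate 1 or 2 of MC38-P or of MC38-LM3a. None of the genes on these 4 lists passed limma's adjusted p between MC38-LM3b and MC38-LM3a. At an unadjusted p under 0.05, 4 importers, 4 exporters, 5 stress response genes and 1 gene of arsenic handling were higher in MC38-LM3b, and 0, 0, 1 and 1 were lower. The median log2 fold change of all tested genes in this comparison was 0.21. After the correction the medians of the 4 lists were -0.0061, -0.00098, -0.069 and -0.055 in the same order. The share of all tested genes past the unadjusted limit is not given here, and nothing is read from these counts.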

How the data were processed

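Total RNA of the 3 cultured lines was extracted with TRIzol, poly(A) RNA was selected, and cDNA libraries were sequenced on the DNBSEQ platform, with no library pooled. The authors deposited TPM per gene and library, rounded to 2 decimals. The submitters' processing notes name HISAT and GRCm39, and the quantification tool is not given in the sources used here. Depth is therefore unknown, and no counting error is given. The study names a count model, which TPM does not allow, so limma 3.58.1 in R 4.3.3 was used on log2(TPM + 1), with 1 model for all 9 libraries, a trended variance and Benjamini-Hochberg adjustment over the 11287 genes that reached 1 TPM in 3 or more libraries. Calls needed an adjusted p under 0.05 together with a log2 fold change beyond 1 in either direction, the limits of the study. The scripts were tested on simulated data. Transcript length and GC content came from GENCODE M21 (GRCm38), and a loess fit of span 0.3 on both gave the corrected values. Coordinates are of GRCm38 and not of the build of the files. Sequences came from RefSeq (GRCm38.p6) and GENCODE M21.

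The genes described and the lists were chosen with earlier results of these data known. Named genes were all members, per list the 3 largest called changes in each direction or, with none, the largest past the adjusted p in both derivatives, the 3 most abundant zinc transporters, the 3 most like profiles and the nearest listed neighbours. Alternatives changed the pseudocount, filter, libraries, replicate block, normalization, correction and variance trend, and left out each library. Leaving out the 2 libraries that stood apart by length was chosen after seeing the data. The p-values measure the spread between samples of a single line.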

Additional observations from a re-analysis of the deposited data

Results flagged for a closer look

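Slc30a1 was picked out because every MC38-LM3a library (7.04 to 7.44 TPM) lay below the MC38-P mean of 7.86 TPM and every MC38-LM3b library (8.40 to 8.53 TPM) above it. The MC38-P libraries, at 6.32 to 9.88 TPM, overlapped with both derivatives, and without MC38-P replicate 1 both derivatives were above MC38-P, with log2 fold changes of 0.069 and 0.28. The log2 fold change of MC38-LM3b against MC38-LM3a was 0.21 (SE 0.14), which is the size of the median of 0.21 of all tested genes in that comparison, and it was -0.099 after correction for length and GC content. The gene was not called there, and as it was chosen on these libraries the difference was not tested beyond that.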

How the results depend on the processing

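Against MC38-P, Mt1, Mt2, Mtf1 and Slc39a10 had 1 sign in all 22 settings, some of which (a replicate block, fewer groups, the variance trend) cannot move a fold change, and from As3mt, chosen for its difference, nothing is read. Sizes moved more: without both libraries that stood apart by length, Mtf1 in MC38-LM3a went from 0.23 to 0.014 and Mt2 from 0.14 to 0.054, and Mt1 went from -0.16 to -0.092 without MC38-LM3a replicate 1. A pseudocount of 0.1 TPM raised the genes called from 326 to 550 in MC38-LM3a and from 444 to 705 in MC38-LM3b. Between the derivatives, 3 genes were called, against 1 with a filter of 5 TPM, 0 to 19 leaving out 1 library (0 without MC38-LM3b replicate 1 or 3, and 19 without MC38-LM3a replicate 3) and 20 without both libraries that stood apart by length. The members called there went from 0 to 1 (Mt4) without MC38-LM3a replicate 3 and without both, a range of 0 to 1 from which nothing is read. Of the zinc transporters outside the members, 3 rose in MC38-LM3a, against 5 after correction for length and GC content. Of these, 1 fell in MC38-LM3a, against 0 with only the groups compared or a replicate block, 2 with quantile normalization, median centring or the correction with a replicate block, 3 with the correction, 0 to 2 leaving out 1 library and 7 without both. In MC38-LM3b 6 rose, against 8 with only the groups compared, 5 without the filter, and 4 with a replicate block, quantile normalization, median centring or the correction. Leaving out 1 library gave 4 to 9, with 4 without MC38-P replicate 3 or MC38-LM3b replicate 1, 2 or 3, and 9 without MC38-LM3a replicate 3. Without both libraries 9 rose. In MC38-LM3b 0 fell, against 1 with quantile normalization, the correction with or without a block, or without both libraries, 2 with median centring, and 0 to 1 leaving out 1 library. The causes were not tested.

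Signs turned, as log2 fold changes, in MC38-LM3a for Slc39a7 (-0.033 to 0.032 leaving out 1 library, -0.046 without both), Slc30a4 (0.0028 with quantile normalization, -0.13 to 0.078 leaving out 1 library) and Uri1 (-0.012 without both). In MC38-LM3b they turned for Slc39a7 (-0.093 with median centring), Slc30a4 (-0.010 with the correction), Bbs2 (-0.12 with quantile normalization, -0.084 with median centring, -0.070 with the correction, -0.0046 to 0.26 leaving out 1 library, -0.0046 without both) and Borcs7 (-0.093, -0.082 and -0.078 in the first 3 of these). Same-numbered libraries were not treated as paired in the main fit. Their deviations from the group means correlated with r from -0.66 to -0.17 between MC38-P and MC38-LM3a and from 0.035 to 0.075 in the pairs with MC38-LM3b. Within MC38-P and MC38-LM3a these deviations follow transcript length, with opposite signs in same-numbered libraries. The correlations therefore cannot show whether same-numbered samples were prepared together. With a replicate block 322 genes were called in MC38-LM3a, 444 in MC38-LM3b and 2 between the derivatives. The split of higher against lower calls in MC38-LM3b was 311 to 133, against 177 to 223 with quantile normalization, 173 to 237 with median centring and 182 to 188 with the correction. A count model could not be run, because TPM keeps no depth.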

Other observations

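Copper and iron handling, beside zinc, were described from lists of the same kind. Of 11 genes of copper handling, 10 were tested. By an adjusted p under 0.05, 3 rose and 1 fell in MC38-LM3a (14.1% and 13.8% of all tested genes). In MC38-LM3b 4 rose and 1 fell (35.6% and 11.2% of all tested genes). Median log2 fold changes were 0.10 and 0.20. After correction for length and GC content 4 rose and 2 fell, and 3 rose and 3 fell, with medians of 0.089 and 0.14. Slc31a2, a copper transporter of endosomes and lysosomes, rose most. It stood at 17.8, 20.2 and 14.5 TPM in MC38-P, at 28.9, 27.9 and 34.7 TPM in MC38-LM3a, and at 33.6, 36.7 and 33.8 TPM in MC38-LM3b. Its log2 fold changes were 0.77 (SE 0.13, limma adjusted p = 0.00115) and 0.96 (SE 0.13, adjusted p = 0.000216).

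Of 13 genes of iron handling, 11 were listed and tested. Of these, 1 rose and 5 fell in MC38-LM3a (14.1% and 13.8% of all tested genes), with a median of -0.19. In MC38-LM3b 0 rose and 3 fell (35.6% and 11.2% of all tested genes), with a median of 0.025. After correction for length and GC content 2 rose and 7 fell in MC38-LM3a, and 0 rose and 7 fell in MC38-LM3b, with medians of -0.21 and -0.15, so that the median of MC38-LM3b turned in sign. Cp, which encodes the copper-carrying ferroxidase ceruloplasmin, was called lower in both derivatives. It stood at 8.65, 7.68 and 5.11 TPM in MC38-P, at 1.54, 1.44 and 1.74 TPM in MC38-LM3a, and at 2.6, 1.89 and 2.24 TPM in MC38-LM3b, with log2 fold changes of -1.64 (SE 0.17, adjusted p = 6.8e-05) and -1.31 (SE 0.17, adjusted p = 0.000205). Steap3, a reductase of endosomal iron, fell from a mean of 11.7 ± 1.22 TPM to 4.90 ± 1.24 and 6.39 ± 0.803 TPM in the derivatives (SD, n = 3), with log2 fold changes of -1.12 (adjusted p = 0.000614) and -0.78 (adjusted p = 0.00338).

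Glucocorticoid and Stat3 signalling, which also turn on Mt1 and Mt2, were followed in 13 genes, of which 12 were tested. In MC38-LM3a 0 rose and 1 fell (14.1% and 13.8% of all tested genes), with a median of -0.053. In MC38-LM3b 3 rose and 1 fell (35.6% and 11.2% of all tested genes), with a median of 0.29. After the correction 2 rose and 2 fell, and 3 rose and 2 fell, with medians of -0.045 and 0.068. The gene that fell in both derivatives was Lifr, a cytokine receptor upstream of Stat3. It stood at 4.16, 3.96 and 2.81 TPM in MC38-P, at 1.85, 1.42 and 1.90 TPM in MC38-LM3a, and at 2.56, 2.46 and 2.22 TPM in MC38-LM3b. Its log2 fold changes were -0.76 (adjusted p = 0.0026) and -0.43 (adjusted p = 0.0289), and the latter did not pass the threshold under a replicate block or without MC38-P replicate 1 or 2 or any 1 MC38-LM3b replicate, with log2 fold changes between -0.46 and -0.35 in those fits. After the correction it was -0.66 (SE 0.097). Lifr lies on chromosome 15, whose tested genes had the lower medians given for Slc39a4.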
